A study of Homo sapiens with 12 samples.

Results

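Interferon response and antigen presentation genes were followed in PC3, an established human prostate carcinoma cell line. The set was a named list of 36 genes, and the counts of all linear transcripts of a gene were summed. All 36 were found among the 43613 genes of the table, and 32 had enough counts to be tested alongside 19986 genes in all. Total RNA of wild-type PC3 cells was sequenced in 12 libraries, 3 in each of 4 groups. The BLANK cells received PBS, the AgNPs cells silver nanoparticles, the DOC cells DOC, and the COM cells AgNPs together with DOC. DOC appears in the labels as an abbreviation, and neither a dose nor a duration or batch is stated. Nothing in them says whether replicates came from separate cultures, so the p-values measure only the spread between these libraries, which may be technical. In RNA of whole cultures, a change in the number of cells that express a gene and a change in RNA per cell cannot be told apart.

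Interferons are secreted proteins that bind receptors on the cell surface. The receptors activate the kinases JAK1, JAK2 and TYK2, which phosphorylate STAT proteins. STAT2 and IRF9 are subunits of the complex ISGF3, which binds the interferon-stimulated response element (ISRE) in the promoters of target genes. Many of the targets block virus replication by sensing or degrading RNA or by acting at membranes, and others load peptides onto class I molecules for display to T cells.

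Summed counts per library differed by group. They lay between 22573481 and 22769479 in BLANK, 13049868 and 13362290 in AgNPs, 18603100 and 19421873 in DOC, and 10996446 and 11069928 in COM. CPM here are counts scaled to a common library total. A floor of 3 counts, which reflects counting error alone, came to between 0.132 CPM (deepest BLANK library) and 0.273 CPM (shallowest COM library). The epithelial keratin genes KRT8 and KRT18 were high, at 161 ± 5.5 and 235 ± 4.95 CPM in BLANK (SD, n = 3). Of 8 leukocyte markers, PTPRC had 6 counts over all 12 libraries and NKG7 had 1. The other markers without a test were not analysed here. The summed level of the leukocyte list was 41.5 to 46.2 CPM in BLANK, 38.9 to 45.3 in AgNPs, 49.4 to 50.4 in DOC and 49.8 to 57.3 in COM, nearly all of it CD68, a lysosomal protein gene that is also expressed outside leukocytes. All 3 tested leukocyte markers, CD14, LYZ and CD68, were higher in COM than in BLANK, as were 25.1% of all genes tested. CD14 had few counts (9, 7 and 6 in BLANK, 14, 4 and 14 in COM), and its groups overlapped. LYZ had 279 counts over all libraries, and the rise of CD68 was 0.24 on the log2 scale. Of the epithelial markers, KRT8 (0.22) rose and KRT18 (-0.16) and EPCAM (-0.51) fell in COM on the log2 scale. The summed level of 6 fibroblast and endothelial markers was 104 to 115 CPM in BLANK, 84.5 to 96.0 in AgNPs, 102 to 116 in DOC and 71.8 to 81.4 in COM; COL1A2 (-0.81) fell and PDGFRB (1.39) rose in COM. The part of these markers in the results was not tested.

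Levels can be compared between genes only per transcript length, so the resting levels in BLANK are given per length. The deposited per-length values carry no unit and were taken as FPKM. The restriction factor IFITM2, a membrane protein that hinders virus entry, and B2M, the invariant light chain of class I molecules, led with 134 ± 8.96 and 133 ± 12.7 FPKM (SD, n = 3). IFITM3, a close relative of IFITM2, followed with 60.7 ± 4.67 FPKM, and ISG15, a ubiquitin-like protein that is attached to other proteins, with 53.2 ± 3.32. Next came EIF2AK2, the RNA-activated kinase PKR that halts translation, at 16.0 ± 0.748 FPKM, and PARP14, an ADP-ribosyltransferase, at 11.5 ± 0.145. In all, 27 of the 36 members had a BLANK mean of at least 1 FPKM. In the order of levels, 24 neighbouring pairs overlapped between libraries and 11 did not. IFITM2 and B2M overlapped, as did IFITM3 and ISG15, whereas ISG15, EIF2AK2, PARP14 and OAS1 followed each other without overlap.

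**Figure D1:**
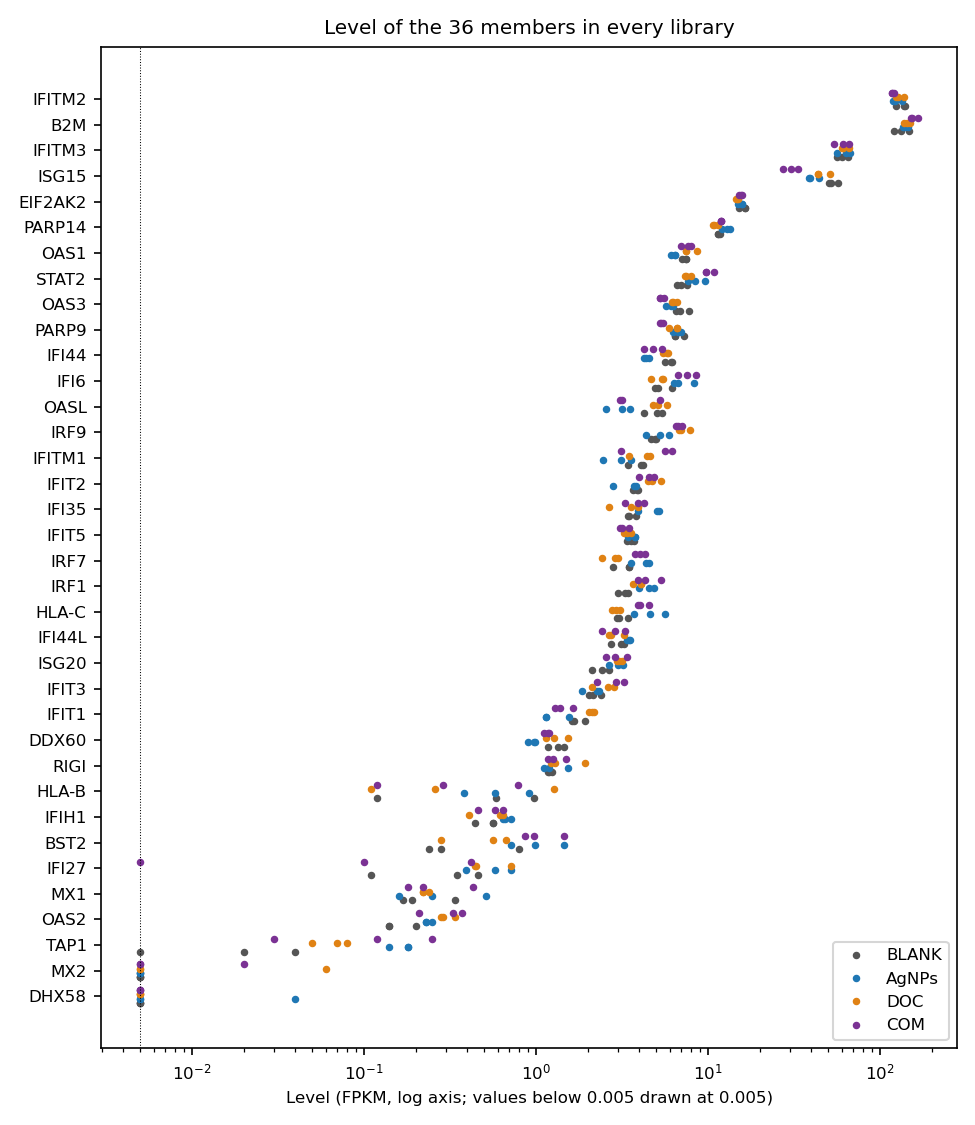
Level of each of the 36 members (vertical axis, ordered by the BLANK mean) in FPKM on a log axis, with 1 point per library, coloured by group; values below 0.005 are drawn at 0.005. IFITM2 and B2M lie above 100 FPKM in every library, and the COM points of ISG15 lie below all of its other points.

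4 members had too few counts for a test. DHX58, an RNA sensor also called LGP2, had 1 count over all 12 libraries, and MX2, a capsid-binding restriction factor, had 3. IFI27, a mitochondrial and nuclear envelope protein gene, had 51, of which 11.5% lay on RefSeq rows. TAP1, which encodes a subunit of the pump that carries peptides to class I molecules, had 41. The TAP1 counts were 0, 1 and 2 in BLANK, 4, 5 and 6 in AgNPs, 3, 3 and 4 in DOC, and 1, 4 and 8 in COM. HLA-B, a class I heavy chain gene, was tested with 104 counts, but only 46.6% of them lay on RefSeq rows. HLA-B, HLA-C and the IFITM genes have near-identical relatives whose reads may have been split between them, so their values are uncertain.

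The promoters were read from RefSeq (GRCh38.p14) as the 250 bases before and 50 after the annotated start. Entries for 29 of the 36 members were matched, all but IRF7, DHX58, OAS2, OASL, IFIT2, IFITM2 and MX2. The core of the ISRE was searched on both strands as the letters GAAA, any 2 bases, and GAAA again, and the core of the STAT site known as GAS as TTCNNNGAA, which reads the same on both strands. The ISRE core was found in 20 of 29 member promoters (69.0%), against 996 of all 27305 promoters (3.65%). The GAS core was found in 9 of 29 (31.0%), against 2152 of 27305 (7.88%). The members were listed as interferon response and antigen presentation genes, so high shares come with the list and say nothing about these cells. The cores of both kinds overlap each other in the IFI27, IFITM1 and BST2 promoters. Shown here are 80-base stretches from upstream of the start of the 5 members with an entry that fell after AgNPs, of PARP14 and BST2, which rose, and of B2M, which rose in COM. Each is read 5′ to 3′ on the strand of its gene, and capitals mark the ISRE core, which reads as TTTC, any 2 bases, and TTTC where it lies on the other strand.
ISG15 (chr1:1013352-1013431, plus strand): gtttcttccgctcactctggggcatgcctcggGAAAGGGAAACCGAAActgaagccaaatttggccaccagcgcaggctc
OAS3 (chr12:112938394-112938473, plus strand): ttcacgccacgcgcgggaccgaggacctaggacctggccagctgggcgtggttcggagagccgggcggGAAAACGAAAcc
IFIT1 (chr10:89392478-89392557, plus strand): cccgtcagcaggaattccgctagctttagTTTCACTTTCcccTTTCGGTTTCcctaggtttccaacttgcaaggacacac
IFI44 (chr1:78649709-78649788, plus strand): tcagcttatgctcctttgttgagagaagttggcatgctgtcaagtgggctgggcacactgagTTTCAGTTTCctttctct
DDX60 (chr4:168318779-168318858, minus strand): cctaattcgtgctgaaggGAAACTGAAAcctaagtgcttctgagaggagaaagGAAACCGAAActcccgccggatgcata
PARP14 (chr3:122680759-122680838, plus strand): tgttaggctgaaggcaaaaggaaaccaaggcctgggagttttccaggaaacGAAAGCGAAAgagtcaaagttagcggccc
BST2 (chr19:17405713-17405792, minus strand): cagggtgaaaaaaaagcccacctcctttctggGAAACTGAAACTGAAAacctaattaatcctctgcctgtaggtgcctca
B2M (chr15:44711341-44711420, plus strand): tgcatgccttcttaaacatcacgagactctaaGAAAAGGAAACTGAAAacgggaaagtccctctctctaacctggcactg
In ISG15, BST2 and B2M, cores overlap each other and form a longer run of capitals. IFIT1 and DDX60 hold separate cores within the stretch. All 5 members with an entry that fell after AgNPs held the ISRE core, against 2 of the 6 that rose and 11 of the 16 tested members with an entry that did not pass. For the GAS core, the numbers were 1 of 5, 4 of 6 and 3 of 16. A match of letters is a description and shows no binding, and the differences between these numbers were not tested.

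AgNPs alone moved 12 of the 32 tested members, 6 up and 6 down. A gene counted as moved when the adjusted p of the edgeR quasi-likelihood test, with Benjamini-Hochberg adjustment over all 19986 genes tested, was below 0.05. Of all genes tested, 14.9% were called higher and 16.0% lower after AgNPs, so the members' shares of 18.8% each way were near the background. The members' median log2 fold change was 0.05, against 0.01 over all genes.

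STAT2, a partner of IRF9 in ISGF3, was at 24.0, 24.7 and 24.5 CPM in BLANK and at 29.5, 30.8 and 27.7 after AgNPs. The groups did not overlap, and STAT2 rose by 0.27 ± 0.06 (log2 fold change ± SE, edgeR adjusted p = 0.000649). IRF1, a transcription factor that drives class I genes, was at 7.52, 7.67 and 8.3 CPM in BLANK and at 11.6, 8.52 and 10.8 after AgNPs. It rose by 0.40 ± 0.11 (log2, edgeR adjusted p = 0.00434), with the second AgNPs library close to BLANK. Without AgNPs replicate 1, the IRF1 difference was 0.31 with an edgeR adjusted p of 0.06. IRF7, the factor that amplifies interferon production, differed by 0.27 ± 0.13 and IRF9 by 0.09, and neither passed; without AgNPs replicate 2, IRF7 passed at 0.37.

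DDX60, a helicase that assists RNA sensing, fell from 6.85, 7.89 and 7.85 CPM in BLANK to 5.26, 5.4 and 5.9 after AgNPs. The change was -0.45 ± 0.12 on the log2 scale (edgeR adjusted p = 0.00321). OASL, a catalytically inactive relative of the oligoadenylate synthetases that enhances RIG-I signalling, was at 7.48, 9.66 and 9.36 CPM in BLANK and at 5.03, 6.62 and 6.21 after AgNPs. It fell by 0.57 ± 0.13 on the log2 scale, and all 3 AgNPs libraries lay below all BLANK libraries. OAS3, a synthetase whose product activates the RNA-degrading enzyme RNase L, fell by 0.25 ± 0.06 on the log2 scale (edgeR adjusted p = 0.000521), from 43.2, 43.8 and 49.2 CPM to 36.1, 40.2 and 38.0. IFIT1, which binds viral RNA with an unmodified cap, was at 7.25, 8.29 and 7.05 CPM in BLANK and at 4.96, 6.7 and 4.9 after AgNPs. It fell by 0.45 ± 0.13 on the log2 scale; the change did not pass without AgNPs replicate 1 (-0.37, edgeR adjusted p = 0.0639) or without AgNPs replicate 3 (-0.36, edgeR adjusted p = 0.0643).

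ISG15 was at 29.4, 33.1 and 30.5 CPM in BLANK and at 22.8, 25.8 and 22.4 after AgNPs. Its log2 fold change was -0.39 ± 0.08 (edgeR adjusted p = 0.000225), with no overlap between the groups. IFI44, a cytoplasmic protein gene induced by type I interferon, was at 12.3, 12.9 and 12.6 CPM in BLANK and at 9.16, 10.3 and 9.04 after AgNPs. It fell by 0.41 ± 0.09 on the log2 scale. Its neighbour IFI44L, which lies within the same 43.6 kb of chromosome 1, differed by 0.23 ± 0.10 and did not pass (edgeR adjusted p = 0.0652).

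PARP14 rose by 0.16 ± 0.04 on the log2 scale, from 88.2, 82.4 and 83.0 CPM to 90.0, 98.2 and 94.8. The remaining 3 members called higher after AgNPs lost their calls when certain libraries were left out in turn. BST2, also called tetherin, which holds budding virus particles at the cell surface, had 5, 6 and 17 counts in BLANK and 9, 18 and 12 after AgNPs. Its log2 fold change was 1.23 ± 0.42 with overlapping groups (edgeR adjusted p = 0.0235); it was 1.97 without BLANK replicate 3, and it did not pass without BLANK replicate 1 (0.94), BLANK replicate 2 (1.0) or AgNPs replicate 2 (0.93). IFI35, a partner of the signalling protein NMI, rose by 0.40 ± 0.15 (edgeR adjusted p = 0.0429), and HLA-C, a class I heavy chain gene, by 0.43 ± 0.14 (edgeR adjusted p = 0.0183). IFI35 did not pass when any of the 3 BLANK libraries was left out (edgeR adjusted p = 0.101, 0.0532 and 0.107) or without AgNPs replicate 2 (0.197) or 3 (0.139). HLA-C did not pass without BLANK replicate 1 (edgeR adjusted p = 0.0885), BLANK replicate 2 (0.0684), AgNPs replicate 2 (0.125) or AgNPs replicate 3 (0.0702), and on RefSeq rows alone its difference was 0.26 and did not pass. With limma-trend on log2(FPKM + 1), the calls of DDX60, OAS3 and IFIT1 were also lost (adjusted p = 0.059, 0.0502 and 0.0661).

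The other members did not pass after AgNPs. IFI6 (0.37) passed without BLANK replicate 3 (0.48), AgNPs replicate 3 (0.46) or DOC replicate 1 (0.37), IFITM2 (-0.10) without BLANK replicate 2 (-0.15), and B2M (0.08) without BLANK replicate 1 (0.15). The RNA sensors RIGI and IFIH1 differed by 0.14 ± 0.15 and 0.34 ± 0.22, OAS1 by -0.21 ± 0.09, and IFITM1 by -0.36 ± 0.22.

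**Figure D2:**
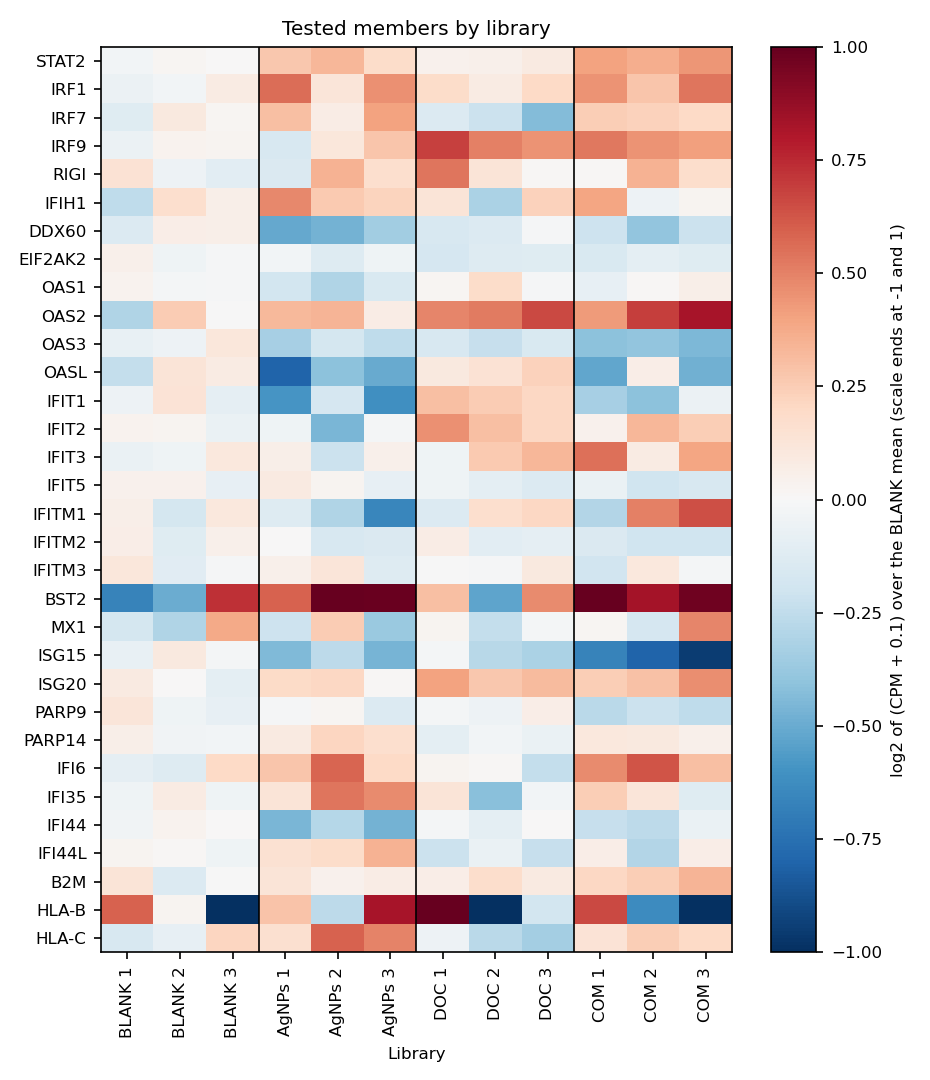
Each tested member (rows, ordered by role) in each of the 12 libraries (columns, in 4 groups of 3), as the log2 of CPM plus 0.1 over the BLANK mean, with the colour scale ending at -1 and 1. ISG15 is blue in all 3 COM libraries, IRF9 is red in all DOC and COM libraries, and BST2 and HLA-B differ between the BLANK libraries themselves.

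DOC alone moved 5 of the 32 tested members, 3 up and 2 down. Over all genes, 7.16% were called higher and 9.81% lower after DOC, and the members' shares were 9.38% and 6.25%. IRF9, the DNA-binding subunit of ISGF3, had the smallest adjusted p of the members. It was at 7.48, 7.98 and 7.94 CPM in BLANK and at 12.6, 11.1 and 10.7 after DOC, a rise of 0.56 ± 0.10 (log2, edgeR adjusted p = 0.000114). None of the DOC libraries overlapped BLANK, and the call passed under all 23 alternatives.

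IFIT2, a member of the family of IFIT1 that can promote cell death, was at 13.5, 13.4 and 12.6 CPM in BLANK and at 18.1, 16.2 and 15.2 after DOC. It rose by 0.32 ± 0.09 on the log2 scale, and without BLANK replicate 3 it was 0.29 with an edgeR adjusted p of 0.05, at the threshold, and was not called. ISG20, an exonuclease that degrades single-stranded RNA, rose by 0.34 ± 0.11 (edgeR adjusted p = 0.0371), from 5.67, 5.32 and 4.97 CPM to 7.08, 6.43 and 6.65. The groups of ISG20 did not overlap, yet its call was lost when BLANK replicate 2 (edgeR adjusted p = 0.0842), BLANK replicate 3 (0.134) or DOC replicate 1, 2 or 3 (0.095, 0.0612 and 0.0777) was left out.

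The kinase EIF2AK2 fell after DOC by 0.14 ± 0.04 on the log2 scale, from 112, 105 and 107 CPM to 96.0, 98.5 and 99.1. OAS3 fell by 0.18 ± 0.05 on the log2 scale, to 40.7, 38.7 and 40.8 CPM. That call was lost without BLANK replicate 3 (-0.12, edgeR adjusted p = 0.172) and without DOC replicate 2 (-0.16, edgeR adjusted p = 0.0776). ISG15 stood at 30.6, 25.5 and 24.9 CPM after DOC, with 1 library at the BLANK level, and its difference of -0.20 did not pass (edgeR adjusted p = 0.0537); without DOC replicate 1 it was -0.30 with an edgeR adjusted p of 0.00103, and it also passed without BLANK replicate 1 (-0.24), COM replicate 1 (-0.20) or COM replicate 3 (-0.20). B2M differed by 0.11 and passed without BLANK replicate 1, at 0.18. With limma-trend on log2(FPKM + 1), 1 member, IRF9, remained called after DOC. OAS2, a synthetase related to OAS3, was at 0.579 ± 0.129 CPM in BLANK and 0.90 ± 0.0638 after DOC (SD, n = 3), and its difference of 0.63 ± 0.31 did not pass.

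The combination moved 13 of the 32 tested members against BLANK, 8 up and 5 down. Over all genes, 25.1% were called higher and 24.5% lower in COM, against 25.0% and 15.6% of the members. The members' median log2 fold change was 0.12, against 0.03 over all genes. The summed level of the 36 members was 690 to 735 CPM in BLANK and 703 to 719 CPM in COM, and these ranges overlapped.

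3 of the 4 transcription factors rose in COM. STAT2 reached 32.3, 31.4 and 33.1 CPM, 1.32-fold its BLANK level (log2 0.40 ± 0.06, edgeR adjusted p = 8.76e-07). IRF1 was at 10.7, 9.53 and 11.4 CPM and rose by 0.43 ± 0.11 on the log2 scale. IRF9 was at 11.3, 10.7 and 10.4 CPM and rose by 0.47 ± 0.11. For each of these factors, all COM libraries lay above all BLANK libraries. IRF7, at 6.78, 6.71 and 6.57 CPM, differed from BLANK by 0.23 ± 0.13 and did not pass.

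ISG15 was at 19.5, 17.8 and 16.0 CPM in COM, below every other library of the study. It fell 1.74-fold against BLANK (log2 -0.80 ± 0.09, edgeR adjusted p = 3.45e-09), and this call passed under all 23 alternatives. OAS3 fell to 34.2, 34.6 and 33.3 CPM, also below every other library (log2 -0.42 ± 0.06, edgeR adjusted p = 2.86e-07). PARP9, an ADP-ribosyltransferase-like partner of the ubiquitin ligase DTX3L, was at 33.1, 29.6 and 28.8 CPM in BLANK and at 25.3, 26.2 and 25.5 in COM. It fell by 0.25 ± 0.07 on the log2 scale. IFITM2 fell by 0.18 ± 0.06 and EIF2AK2 by 0.12 ± 0.04 on that scale. The IFITM2 call was lost without BLANK replicate 1 (edgeR adjusted p = 0.0587) or 3 (0.0538), and the EIF2AK2 call without BLANK replicate 1 (0.0541).

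B2M was at 135, 112 and 123 CPM in BLANK and at 142, 146 and 156 in COM, without overlap. It rose by 0.26 ± 0.06 on the log2 scale (edgeR adjusted p = 0.00154). IFI6, which protects mitochondria from death signals, rose by 0.48 ± 0.15, from 3.87, 3.77 and 4.75 CPM to 5.78, 6.44 and 5.11. The IFI6 call was lost without COM replicate 2 (0.39, edgeR adjusted p = 0.0666).

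The other 3 members called higher in COM also lost their calls when certain libraries were left out in turn. IFIT3, which stabilises IFIT1, rose by 0.36 ± 0.14 with overlapping groups. Its call was lost without BLANK replicate 1 (edgeR adjusted p = 0.0743), BLANK replicate 2 (0.0646), COM replicate 1 (0.211) or COM replicate 3 (0.0828). ISG20 rose by 0.34 ± 0.13 and was lost without BLANK replicate 3 (edgeR adjusted p = 0.0751) or COM replicate 3 (0.131). BST2 rose by 1.29 ± 0.44; it was 2.03 without BLANK replicate 3, and it did not pass without BLANK replicate 1 (edgeR adjusted p = 0.071), BLANK replicate 2 (0.0645) or COM replicate 1 (0.108). Members that did not pass in COM included DDX60 (-0.27), IFI44 (-0.19), OASL (-0.29), IFIT1 (-0.27) and IFIT2 (0.21). Of these, DDX60 passed without BLANK replicate 1 (-0.33), OASL without BLANK replicate 1 (-0.39) or COM replicate 2 (-0.51), IFIT1 without COM replicate 3 (-0.38), and IFIT2 without AgNPs replicate 2 (0.22), DOC replicate 1 (0.22) or COM replicate 1 (0.29). With all libraries thinned to the depth of the smallest, IFI6 (0.34), IFIT3 (0.33) and ISG20 (0.30) were no longer called in COM. PARP14 (0.09) passed without BLANK replicate 1 (0.12), and IFITM1 (0.35) without COM replicate 1 (0.59).

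**Figure D3:**
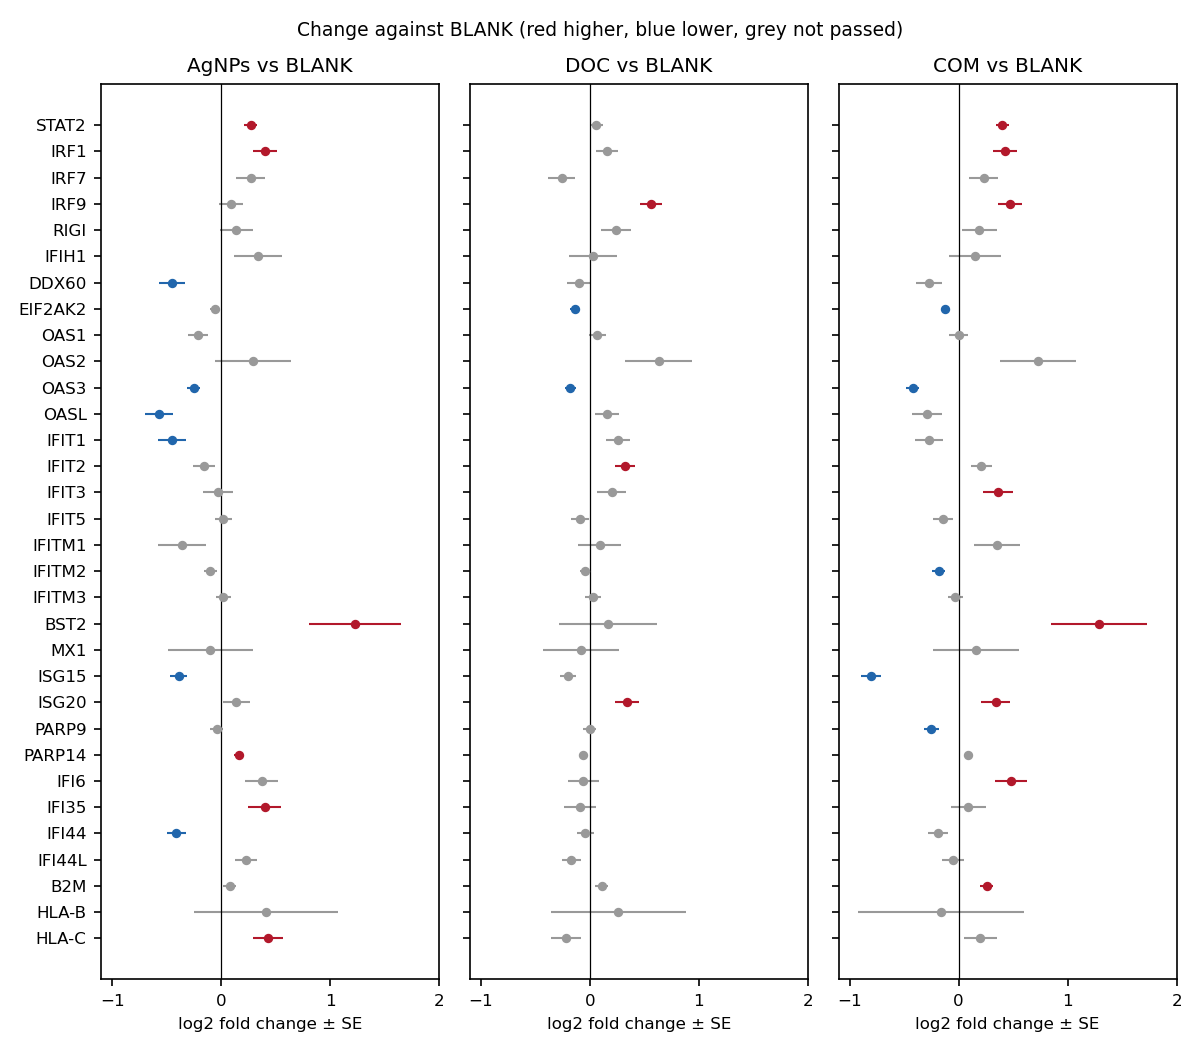
Log2 fold change against BLANK with its standard error for the 32 tested members (vertical axis, ordered by role) after AgNPs, DOC and COM; red marks members called higher, blue called lower, and grey those that did not pass. AgNPs gives 6 red and 6 blue points, DOC 3 and 2, and COM 8 and 5, with ISG15 lowest in COM at -0.80 and BST2 highest at 1.29.

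The 3 treatments share the BLANK libraries, so their values are set side by side only. STAT2, IRF1 and BST2 were called higher after AgNPs and in COM, and OAS3 and ISG15 were called lower after both. No member was called higher after any treatment and lower after another, relative to BLANK. 23 members were called in at least 1 of the 6 comparisons and 9 in none: RIGI and IFIH1, the RNA sensors RIG-I and MDA5, OAS1, OAS2, IFIT5, IFITM3, MX1, IFI44L and HLA-B. MX1, a GTPase that traps viral nucleocapsids, had only 122 counts in all, and its standard errors of 0.35 to 0.39 against BLANK leave changes of that size undetectable. IFITM3, with 7245 counts, differed from BLANK by 0.02, 0.03 and -0.03, each with a standard error of 0.07.

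Adding DOC to AgNPs (COM against AgNPs) moved 6 members, 4 up and 2 down, where 9.87% of all genes were called higher and 12% lower. ISG15 fell by a further 0.41 ± 0.09 on the log2 scale (edgeR adjusted p = 0.00178). PARP9, at 30.3, 31.0 and 27.8 CPM after AgNPs, was lower in COM by 0.21 ± 0.07. That PARP9 call was lost without AgNPs replicate 1 (edgeR adjusted p = 0.0839) or 2 (0.123), or COM replicate 1 (0.0915) or 3 (0.0842). IRF9 was at 6.98, 8.45 and 9.5 CPM after AgNPs and was higher in COM by 0.38 ± 0.12. Its call was lost without AgNPs replicate 1 (0.26, edgeR adjusted p = 0.149) or COM replicate 1 (0.34, edgeR adjusted p = 0.0761).

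IFIT2 was at 12.8, 9.59 and 13.0 CPM after AgNPs and at 13.6, 16.6 and 15.6 in COM, a difference of 0.37 ± 0.11. It was 0.24 without AgNPs replicate 2 (edgeR adjusted p = 0.134) and 0.30 without COM replicate 2 (0.0852). IFITM1, a relative of IFITM3 found at the cell surface, was at 2.25, 1.98 and 1.53 CPM after AgNPs and at 1.99, 3.54 and 3.92 in COM, with overlapping groups. Its difference of 0.71 ± 0.24 was lost without AgNPs replicate 2 (edgeR adjusted p = 0.0623) or 3 (0.14), or COM replicate 2 (0.123) or 3 (0.194). B2M was higher in COM by 0.18 ± 0.06 with an edgeR adjusted p of 0.0454, and leaving out any of BLANK replicate 3, all 3 AgNPs libraries in turn, DOC replicates 1 or 3 and COM replicates 2 or 3 ended that call, with adjusted p from 0.0616 to 0.151. OAS3 (-0.16) passed without AgNPs replicate 1 (-0.21), and IFIT3 (0.39) without DOC replicate 1 (0.39) or COM replicate 2 (0.50).

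Adding AgNPs to DOC (COM against DOC) moved 11 members, 6 up and 5 down, where 18.1% of all genes were called higher and 18.5% lower. The higher members were STAT2 (0.34 ± 0.06), IRF7 (0.49 ± 0.14), BST2 (1.13 ± 0.44), PARP14 (0.15 ± 0.04), IFI6 (0.55 ± 0.15) and HLA-C (0.42 ± 0.16). The lower members were ISG15 (-0.60 ± 0.09), IFIT1 (-0.52 ± 0.13), OASL (-0.45 ± 0.14), PARP9 (-0.25 ± 0.07) and OAS3 (-0.23 ± 0.06). IRF7 was at 5.17, 4.89 and 4.2 CPM after DOC, below all COM libraries. IFIT1 was at 9.32, 9.0 and 8.7 CPM after DOC and at 5.96, 5.63 and 7.21 in COM. The DOC libraries lay above its BLANK libraries, but that difference of 0.26 did not pass (edgeR adjusted p = 0.101). OASL was at 9.48, 9.77 and 10.4 CPM after DOC and at 6.14, 9.26 and 6.3 in COM.

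The OASL call was lost without COM replicate 1 (-0.34) or 3 (-0.36). The HLA-C call was lost without DOC replicate 2 (edgeR adjusted p = 0.0865) or 3 (0.111), or COM replicate 1, 2 or 3 (0.0549, 0.108 and 0.0783). The BST2 call was lost without AgNPs replicate 3 (edgeR adjusted p = 0.0518), DOC replicate 2 (0.173), COM replicate 1 (0.22) or COM replicate 3 (0.0648). B2M differed by 0.15 with an edgeR adjusted p of 0.0524, and passed without BLANK replicate 1 (0.15), BLANK replicate 2 (0.16), DOC replicate 2 (0.18) or COM replicate 1 (0.18). IRF1 (0.27) passed without AgNPs replicate 2 (0.27) or COM replicate 2 (0.33). IFITM2 (-0.14) passed without BLANK replicate 2 (-0.14), AgNPs replicate 1 (-0.14), DOC replicate 2 (-0.17) or DOC replicate 3 (-0.17).

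ISG15 and PARP9 were the members called lower in COM than in BLANK, AgNPs and DOC alike. The interaction, which asks whether the combination departs from the sum of both single changes on the log2 scale, was called for 0 of 32 members in either direction by edgeR. Over all genes it was called higher for 0.731% and lower for 0.375%. PARP9 was the only member with an unadjusted p below 0.05 (interaction -0.21 ± 0.09, edgeR adjusted p = 0.404). DESeq2 also called 0, but it gave no adjusted p for some members, IRF7, DDX60 and IFITM1 among them. For ISG15 the interaction was -0.21 ± 0.12, for IFITM1 0.62 ± 0.31 and for IFI44 0.26 ± 0.13. A p that misses the threshold does not show that the changes add up.

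**Figure D4:**
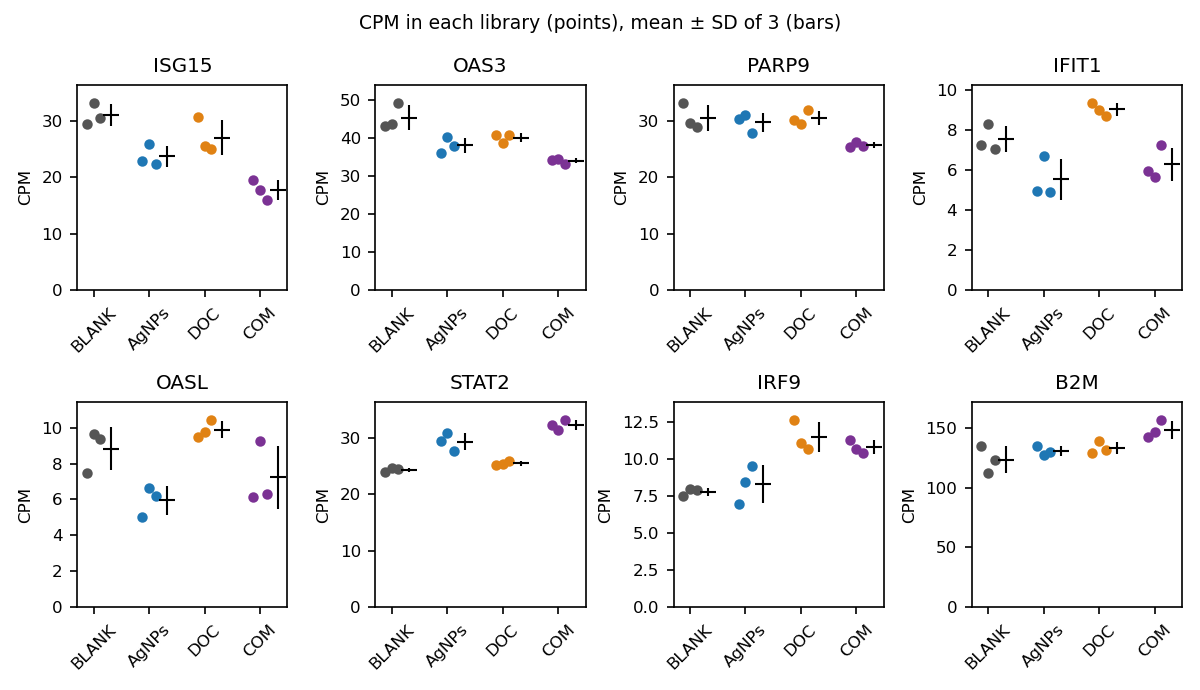
CPM of 8 members in each library (points, grouped by treatment on the horizontal axis) with the mean and SD of each group of 3 (bars); every vertical axis starts at 0. ISG15, OAS3 and PARP9 are lowest in COM, IFIT1 and OASL are lower after AgNPs than in BLANK, STAT2 is higher in both groups with AgNPs, IRF9 is higher in both groups with DOC, and B2M is highest in COM.

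Members of 1 family moved differently. The 4 IFIT genes lie within 119.0 kb of chromosome 10 (chr10:89302046-89420997). After AgNPs, IFIT1 fell while IFIT2 (-0.16), IFIT3 (-0.03) and IFIT5 (0.02) did not pass, and after DOC only IFIT2 rose. OAS1, OAS3 and OAS2 lie within 104.8 kb of chromosome 12 (chr12:112906962-113011723). OAS3 was called lower by each treatment, whereas OAS1 differed from BLANK by -0.21, 0.07 and -0.00 after AgNPs, DOC and COM, and OAS2 by 0.29, 0.63 and 0.73. PARP9 and PARP14, both on chromosome 3, were called in opposite directions in COM against DOC. Differences between the members of a family were not tested.

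Of 10 interferon genes, IFNB1, IFNK, IFNG, IFNL1, IFNL2 and IFNL3 were not analysed here. IFNA2 and IFNW1 had 2 and 1 counts over all libraries. IFNE, a type I interferon of epithelia, had 424 counts and did not pass in any comparison. IFNA1 had 303 counts, of which 0.0% lay on RefSeq rows, so that its rise after DOC (0.95 ± 0.23) and in COM (0.96 ± 0.26) cannot be assigned to a RefSeq transcript.

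Of the 6 receptor genes, IL10RB rose after AgNPs (0.41 ± 0.11), none passed after DOC, and IFNAR1 fell in COM (-0.15 ± 0.05). Of the 4 tested kinase and STAT genes, 2 rose and 1 fell after AgNPs, 0 rose and 1 fell after DOC, and 2 rose and 2 fell in COM, numbers too small to set against the share of all genes. JAK1 rose by 0.18 ± 0.04 after AgNPs and 0.30 ± 0.04 in COM, and JAK2 by 0.23 ± 0.07 and 0.29 ± 0.07. TYK2 fell by 0.11, 0.16 and 0.31 after AgNPs, DOC and COM on the log2 scale.

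The feedback inhibitors of JAK signalling SOCS1 and SOCS3 rose with AgNPs. SOCS1 was at 0.45, 0.576 and 0.71 CPM in BLANK, 2.18, 1.83 and 1.69 after AgNPs, 0.905, 0.926 and 0.87 after DOC, and 3.25, 2.9 and 4.02 in COM. No AgNPs or COM library overlapped BLANK or DOC. SOCS1 rose by 1.70 ± 0.28 after AgNPs and by 2.53 ± 0.26 in COM on the log2 scale (edgeR adjusted p = 1.67e-10), and the DOC difference of 0.63 did not pass. SOCS3 rose by 0.75 ± 0.10 and 0.88 ± 0.11. USP18, which removes ISG15 from proteins and blocks the receptor, fell by 0.55 ± 0.19 after AgNPs and 0.48 ± 0.20 in COM. Of the 8 inhibitors, 2 rose and 3 fell after AgNPs and in COM, and none passed after DOC. The shares were 25.0% higher and 37.5% lower after AgNPs and in COM, which are coarse with 8 genes. Of all genes, 14.9% were higher and 16.0% lower after AgNPs, and 25.1% and 24.5% in COM.

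Of the 9 tested genes of nucleic acid sensing, 2 rose and 2 fell after AgNPs, 0 rose and 1 fell after DOC, and 3 rose and 2 fell in COM. These are 22.2% each way after AgNPs and 33.3% and 22.2% in COM, against 14.9% higher and 16.0% lower, and 25.1% and 24.5%, of all genes. TBK1, the kinase that activates IRF3, rose by 0.36 ± 0.06 after AgNPs and 0.54 ± 0.06 in COM, while its relative IKBKE fell by 0.30, 0.25 and 0.44 after AgNPs, DOC and COM on the log2 scale. ADAR, which edits double-stranded RNA, fell by 0.14 and 0.20 after AgNPs and COM. Of 34 tested further interferon-stimulated genes, 6 rose and 6 fell after AgNPs, 0 rose and 2 fell after DOC, and 8 rose and 7 fell in COM. The shares of 17.6% each way after AgNPs, 0.0% and 5.88% after DOC, and 23.5% and 20.6% in COM were near or below those of all genes (14.9% and 16.0%, 7.16% and 9.81%, 25.1% and 24.5%). TRIM14 (-0.55), PNPT1 (-0.53), LAP3 (-0.47) and APOL6 (0.52) had the smallest adjusted p in COM.

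Of 14 tested genes of class I antigen processing outside the 36, 4 rose and 3 fell after AgNPs, 1 rose and 5 fell after DOC, and 3 rose and 9 fell in COM. The shares higher and lower were 28.6% and 21.4% after AgNPs, 7.14% and 35.7% after DOC, and 21.4% and 64.3% in COM, against 14.9% and 16.0%, 7.16% and 9.81%, and 25.1% and 24.5% of all genes. HLA-E, which presents leader peptides to natural killer cells, was at 41.9, 44.4 and 47.5 CPM in BLANK, 58.7, 60.9 and 61.0 after AgNPs, and 67.2, 66.9 and 69.1 in COM. It rose by 0.43 ± 0.05 and by 0.60 ± 0.05 on the log2 scale (edgeR adjusted p = 2.43e-12 in COM). TAPBP, or tapasin, which joins class I molecules to the peptide pump, rose in COM by 0.34 ± 0.04. HLA-E has close relatives, which limits its values as for HLA-B and HLA-C.

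Genes of peptide production and transport were among the 9 that fell in COM. PSMB10, an immunoproteasome subunit, was at 8.51, 9.66 and 8.25 CPM in BLANK and at 5.42, 5.35 and 5.48 in COM, and fell by 0.70 ± 0.12 on the log2 scale. The proteasome activators PSME1 and PSME2 fell by 0.22 and 0.41, and TAP2, the other subunit of the peptide pump, by 0.21. NLRC5, the transactivator of class I genes, was at 1.23 ± 0.263 CPM in BLANK and 0.636 ± 0.244 in COM (SD, n = 3), and fell by 0.95 ± 0.35. PSMB8, another immunoproteasome subunit, had 1 count over all libraries, and PSMB9 was not analysed here. Of the 11 class II genes, 2 were tested. CIITA, their transactivator, rose after DOC by 0.52 ± 0.13, but 3.0% of its counts lay on RefSeq rows.

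Between the treated groups, the counts of the further lists stand beside 9.87% of all genes higher and 12% lower in COM against AgNPs, and 18.1% and 18.5% in COM against DOC. In COM against AgNPs, 0 of the 6 receptor genes were called, and 1 kinase or STAT gene rose and 2 fell. Of the inhibitors 1 rose and 1 fell, with SOCS1 higher by 0.83 ± 0.23. Of the sensing genes 1 rose and 0 fell, of the further interferon-stimulated genes 0 rose and 4 fell (11.8%), and of the class I genes 2 rose (14.3%) and 4 fell (28.6%). In COM against DOC, 1 receptor gene fell, 2 kinase or STAT genes rose and 1 fell, 2 inhibitors rose and 1 fell, and 2 sensing genes rose and 1 fell. Of the further interferon-stimulated genes 10 rose (29.4%) and 6 fell (17.6%), and of the class I genes 3 rose (21.4%) and 4 fell (28.6%). SOCS1 was higher in COM than after DOC by 1.90 ± 0.24 and HLA-E by 0.51 ± 0.05. The interaction was called for 0 of the 91 tested genes outside the set, cell type markers included, by edgeR and by DESeq2. Any gene without an adjusted p in DESeq2 counts as not called there. In edgeR, 3 had an unadjusted p below 0.05.

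The mean z-score of the 23 called members over the 12 libraries stayed between -0.20 and 0.22. The genes outside the set most like this mean, by Pearson r over the 12 libraries, were DHDDS (0.928), LOC105369363 (0.894), LINC02998 (0.884), QRICH2 (0.875) and PCDH10 (0.866). Some called members rose and others fell, so opposite changes offset each other in this mean. The r named are the highest over all genes compared, and they describe the 12 libraries, which share groups and depth.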

How the data were processed

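Per the labels, TRIzol RNA was made into libraries with a BGI mRNA kit. The submitters' processing notes name HISAT2, Bowtie2 2.2.5, RSEM and GRCh38, without the role of each. The deposited table holds expected counts per transcript, not normalised, and per-length values. The authors deposited the latter without naming a unit, and FPKM was inferred from their ratios to the counts. Those ratios would look the same for another per-length unit with its own scale factor per library. Of 221796 rows, 177700 linear ones were summed by gene and rounded; 44096 circular rows and the authors' means were not used. edgeR 4.0.16 (R 4.3.3) was run with TMM scaling, filterByExpr and 1 robust quasi-likelihood fit over 12 libraries with a coefficient per group, which kept 19986 genes (common biological coefficient of variation 0.033). Tests are two-sided, and p-values were adjusted by Benjamini-Hochberg across every gene kept, with calls at 0.05. CPM use TMM-scaled library sizes. The script was tested on simulated data. Replicates scattered more than counting error (chi-square per degree of freedom 1.46 to 4.76). Pairs with BLANK replicate 1 (3.7 and 3.45) or DOC replicate 1 (4.43 and 4.76) scattered most, and the other pairs reached at most 1.99. The members, gene lists, motifs and alternatives were chosen with earlier results of these data known. Named are all members, up to 4 called genes of each further list per comparison by adjusted p, 6 genes whatever their result (some are not reported here), and the 5 genes most like the called members; USP18, TAP2, PSME1 and genes with few counts were chosen after their values were seen. Alternatives were other scaling, filters, depth, rows, tools, a replicate block and leaving out each library. Apart from the DESeq2 interaction, they were read for the members only. The calls of genes outside the set, such as SOCS1, NLRC5 and HLA-E, were not checked in this way.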

Additional observations from a re-analysis of the deposited data

How the results depend on the processing

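Of 47 calls of members over the 6 comparisons, 21 held under all 23 alternatives, 26 were lost under at least 1 and 10 under more than 5. No called change reversed its direction. Of 145 differences that did not pass, 22 passed under at least 1 alternative. The number of members called higher after AgNPs was 6, with 3 by DESeq2 and 3 to 7 when each library was left out in turn. By DESeq2, IFI35 and HLA-C did not pass, and BST2 had no adjusted p. After AgNPs, 6 were called lower, with 3 by limma-trend on log2(FPKM + 1) and 3 on log2(FPKM + 0.1). After DOC, 3 were higher, with 1 by limma-trend at each pseudocount and 1 to 4 when a library was left out; 2 were lower, with 0 by limma-trend at each pseudocount and 1 to 3 when a library was left out. In COM against BLANK, 8 were higher, and 5 with all libraries thinned to the smallest. In COM against AgNPs, 4 were higher, with 2 by limma-trend at each pseudocount, 2 by DESeq2 and 1 to 4 when a library was left out; 2 were lower, with 1 on RefSeq rows, 1 by DESeq2 and 1 to 2 when a library was left out. Scaling moved the median of all genes by less than 0.1 on the log2 scale.

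With the replicate number as a block (replicate block), 5 members were higher and 6 lower after AgNPs, 3 and 3 after DOC, 8 and 6 in COM against BLANK, 3 and 2 in COM against AgNPs, 7 and 6 in COM against DOC, and 0 and 0 for the interaction. Libraries that share a number share only that number: their deviations from the group means correlated between -0.14 and 0.137 (18 pairs), against -0.164 to 0.139 for different numbers (36 pairs).

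Depth differed by group, and members with few counts, such as BST2, MX1 and HLA-B, have wide errors.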
